A study of Populus ussuriensis with 12 samples.

Results

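Proanthocyanidins, also called condensed tannins, are polymers of flavan-3-ols that poplars accumulate in leaves, bark and roots. The branch of their synthesis described here starts with dihydroflavonol reductase (DFR), which makes leucoanthocyanidins. Leucoanthocyanidin reductase (LAR) turns these into catechin-type flavan-3-ols, while anthocyanidin synthase (ANS) and then anthocyanidin reductase (ANR) lead to epicatechin-type ones. In poplar, the MYB transcription factors MYB134 and MYB115 are known as activators of this branch. The genes described here are 10 of the 34699 genes measured in the root tip. There are 8 enzyme genes (DFR1, DFR2, ANS1, ANS2, ANR1, LAR1, LAR2 and LAR3) and 2 regulators (MYB134 and MYB115). They were chosen by name and not by level, though with earlier results of these data known. The names come from that choice, since the deposited table holds identifiers only.

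RNA was sequenced from the terminal 0.5 cm of roots of Populus ussuriensis plants grown in vitro. The groups were plants overexpressing the CCCH zinc finger gene PuC3H35 on medium with 6% PEG6000 (OE PEG), wild-type plants on that medium (WT PEG), overexpressors on medium without PEG (OE) and wild-type plants without PEG (WT), with 3 libraries in each. PEG is an osmotic agent that imposes a water deficit, and 1-week-old plants stayed on the medium for 7 days. Although the label of each of the 6 OE libraries has its own PuC3H number, the title of the series speaks of 1 line, and they were taken as 1 genotype. The sources used here do not give the promoter that drives the transgene. Nothing in the labels says that replicates were separate plants, so the p-values measure the spread between these libraries, which may be technical. The table names no gene, so neither the level of PuC3H35 nor root tip markers were looked up. In whole root tips, fewer cells of a type and less RNA per cell cannot be told apart.

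All 10 genes passed the filter of a mean of at least 1 FPKM, as did 22640 of all genes. FPKM is a read count scaled to gene length and library depth, so levels of different genes can be compared. Read numbers recovered from the FPKM steps ran from 317, for MYB115 in a WT PEG library, to 29898, for ANS1 in an OE library. At 317 reads, counting error alone gives a coefficient of variation of 5.62%, if each read is an independent molecule. The SD between the 3 libraries of a group was 0.353% to 14.0% of the mean over the 40 combinations of gene and group, with a median of 1.97%. The highest values, 14.0% and 13.9%, were those of MYB115 and LAR3 in WT. The FPKM sum over all genes was 661656 to 665551 in the OE PEG libraries and 610202 to 623973 in the other 9. Recovered gene lengths were 1321 to 1718 bp for the 10 genes, against a median of 1825 bp for the genes tested. The part of either in the values below was not tested beyond the analyses that rescale the sum or remove a trend with length.

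ANS1, ANR1, DFR1 and ANS2 were among the abundant transcripts of these root tips. In WT, ANS1 averaged 440.0 ± 1.55 FPKM (SD, n = 3), which put it at rank 153 of the 34699 genes. ANS2 at 179 ± 2.99 FPKM, DFR1 at 177 ± 4.05 FPKM and ANR1 at 176 ± 1.46 FPKM (SD, n = 3) stood next in WT and did not differ from each other beyond their spread. LAR2 followed at 116 ± 2.27 FPKM, LAR1 at 74.7 ± 1.33 FPKM, DFR2 at 54.9 ± 1.16 FPKM and MYB134 at 36.5 ± 0.154 FPKM, each apart from the next. LAR3 at 14.3 ± 1.99 FPKM and MYB115 at 11.0 ± 1.54 FPKM closed the order, with WT libraries at 12.5 to 16.4 FPKM for LAR3 and 9.37 to 12.4 FPKM for MYB115. LAR3 and MYB115 still stood above 77.1% and 72.3% of all genes in WT.

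**Figure D1:**
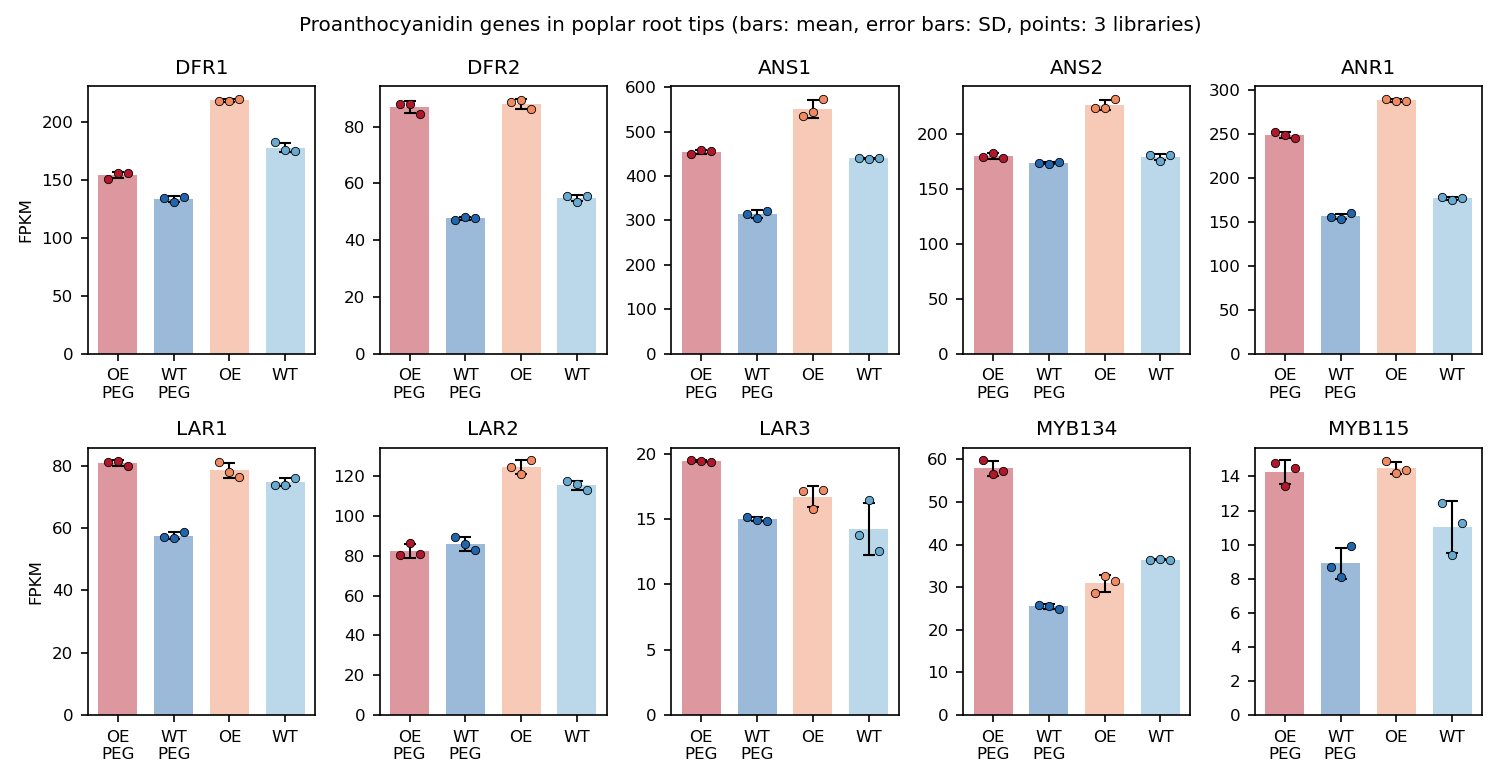
FPKM of the 10 genes in every library, by group, with bars at the mean and error bars at 1 SD of 3 libraries; each panel has its own axis from 0. Most enzyme genes were higher in OE than in WT on both media and lower with PEG, while MYB134 was highest in OE PEG, at 56.6 to 59.8 FPKM, and lowest in WT PEG, at 24.9 to 25.9 FPKM.

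Without PEG, overexpression of PuC3H35 went with higher transcript levels along most of the enzyme branch. The 8 enzyme genes together summed to 1592 ± 24.9 FPKM in OE and 1232 ± 9.25 FPKM in WT (SD, n = 3), a ratio of 1.29. By limma, 9 of the 10 genes were called at an adjusted p under 0.05, against 55.0% of the 22640 genes tested. Of these, 8 were higher in OE, against 31.7% of all genes, and 1 was lower, against 23.4%. The median log2 fold change was 0.31 for the 10 genes and 0.04 for all genes. The largest ratios were those of ANR1 and DFR2.

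ANR1 (Potri.004G030700), the enzyme that makes epicatechin-type units, had 290.0, 287 and 287 FPKM in OE, against 178, 175 and 177 FPKM in WT. The groups lie far apart, at 1.63 times the WT mean (log2 fold change 0.70, SE 0.03, limma adjusted p = 4.2e-11). DFR2 (Potri.005G229500), the minor DFR copy, had 88.6, 89.6 and 86.2 FPKM in OE, against 55.6, 53.5 and 55.4 FPKM in WT. Its ratio was 1.61 (log2 fold change 0.67, SE 0.03, limma adjusted p = 4.6e-10). The other copy, DFR1 (Potri.002G033600), had 217, 218 and 220 FPKM in OE, against 182, 175 and 175 FPKM in WT, a ratio of 1.23 with adjusted p = 9.2e-07. DFR1 and DFR2 libraries of OE thus all stood above those of WT, DFR2 by the larger ratio. The same separation upward was seen for 34.6% of all genes tested.

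Both ANS copies were higher in OE by similar ratios. ANS1 (Potri.003G119100) had 536, 544 and 574 FPKM in OE, against 440.4, 438 and 441 FPKM in WT, a ratio of 1.25 (limma adjusted p = 7.2e-07). ANS2 (Potri.001G113100) had 224, 224 and 232 FPKM in OE, against 181, 175 and 181 FPKM in WT, a ratio of 1.27 (adjusted p = 1.6e-07). With quantile normalization the log2 fold change of ANS1 was 0.523, against 0.33 as deposited. The LAR genes, on the catechin side of the branch, differed less. LAR2 (Potri.010G129800) had 125, 121 and 128 FPKM in OE, against 118, 116 and 113 FPKM in WT, and was called higher at a ratio of 1.08 (adjusted p = 0.033). LAR3 (Potri.015G050200) had 17.2, 15.8 and 17.2 FPKM in OE, against 13.8, 16.4 and 12.5 FPKM in WT, and was called higher at 1.17 (adjusted p = 0.017) although the libraries overlapped. LAR1 (Potri.008G116500) had 81.2, 78.0 and 76.4 FPKM in OE, against 74.0, 73.9 and 76.2 FPKM in WT, and was not called (log2 fold change 0.07, 95% interval -0.00 to 0.14, limma adjusted p = 0.084). The LAR2 call was lost in 6 of 24 alternative analyses and the LAR3 call in 5, LAR2 with median-of-ratios scaling, without the variance trend and without OE library 1 or 3 or WT library 2 or 3, and LAR3 with only OE and WT in the fit and without OE library 1 or 3 or WT library 1 or 3. Without WT library 3, LAR3 was at 0.141, against 0.22 with all libraries. LAR1 was called at 0.091 without OE library 3.

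The regulators differed in opposite directions without PEG. MYB115 (Potri.002G173900) had 14.9, 14.2 and 14.4 FPKM in OE, against 12.4, 9.37 and 11.3 FPKM in WT. All OE libraries lay above all WT libraries, as for 34.6% of all genes tested. The ratio was 1.31 (log2 fold change 0.37, SE 0.09, limma adjusted p = 0.002). MYB134 (Potri.006G221800) had 28.7, 32.7 and 31.4 FPKM in OE, against 36.3, 36.6 and 36.5 FPKM in WT. It was the single gene of the 10 called lower in OE, at 0.847 times the WT mean (log2 fold change -0.23, SE 0.05, limma adjusted p = 5.4e-04).

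**Figure D2:**
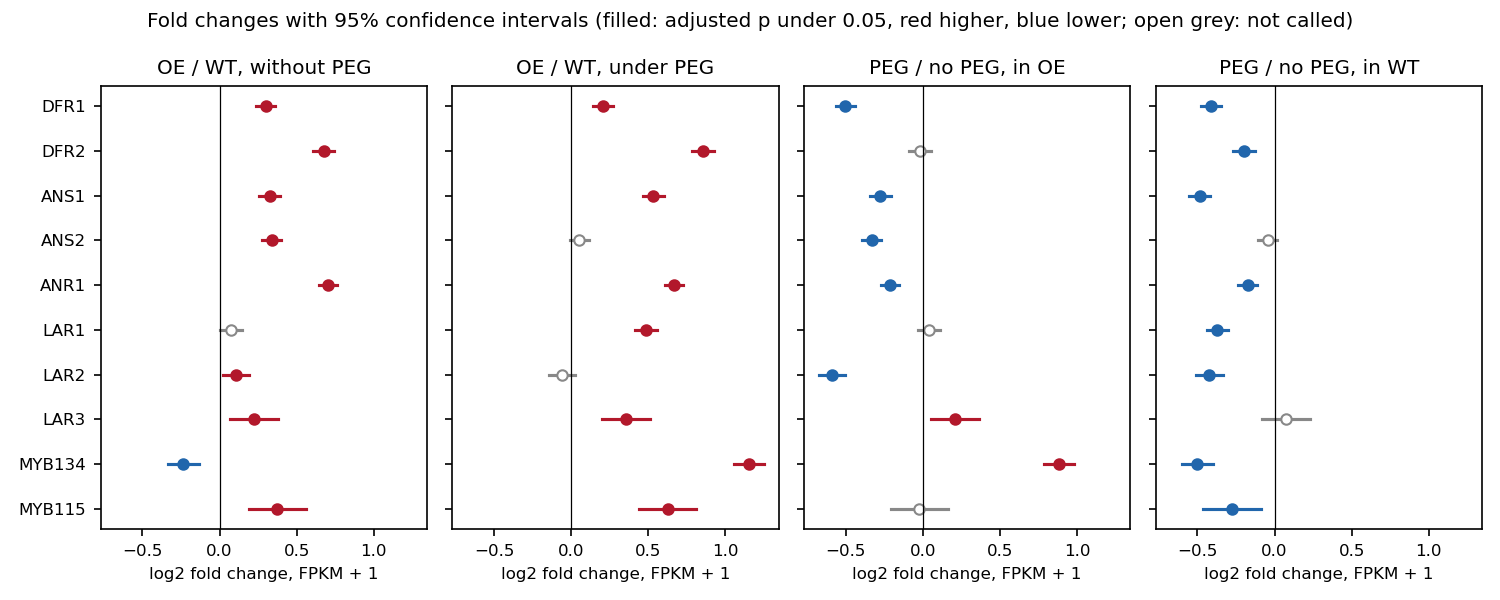
Log2 fold changes of FPKM + 1 of the 10 genes in the 4 comparisons, with 95% confidence intervals from limma; filled points are called at an adjusted p under 0.05, red higher and blue lower, and open grey points are not called. OE was called higher than WT for 8 genes under PEG (36.1% of all genes) and 8 without it (31.7%), PEG lowered 5 genes in OE (34.1% of all genes) and 8 in WT (34.7%), and MYB134 took both signs in the genotype panels and in the PEG panels.

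Under PEG the enzyme genes together stood at 1307 ± 12.7 FPKM in OE PEG and 983 ± 14.2 FPKM in WT PEG (SD, n = 3), a ratio of 1.33. This ratio is of levels as deposited, and the OE PEG libraries had the higher FPKM sums over all genes. With equal FPKM sums, 24 of the 40 mean levels by gene and group moved by over 1 of their SDs. By limma, 8 of the 10 genes were called, all higher in OE PEG, against 68.3% of the 22640 genes called in either direction, 36.1% called higher and 32.2% called lower. The median log2 fold change was 0.51 for the 10 genes and 0.03 for all genes. MYB134 had the largest ratio, 2.27, and was the only one of the 10 past 2-fold in any of these comparisons, a size that 5.95% of all genes reached upward in OE PEG against WT PEG.

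MYB134 had 59.8, 56.6 and 57.2 FPKM in OE PEG, against 25.9, 25.7 and 24.9 FPKM in WT PEG. The log2 fold change was 1.15 (SE 0.05, limma adjusted p = 1.5e-11), and 92.9% of all genes tested had a smaller absolute change. MYB115 had 14.8, 13.5 and 14.5 FPKM in OE PEG, against 8.68, 8.12 and 9.92 FPKM in WT PEG. Its ratio was 1.60 (log2 fold change 0.63, SE 0.09, limma adjusted p = 1.5e-05), with no overlap between the groups. Of all genes tested, 37.5% were likewise higher in OE PEG without overlap.

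Among the enzymes, DFR2 had 88.2, 88.0 and 84.6 FPKM in OE PEG, against 47.1, 48.2 and 47.6 FPKM in WT PEG. The ratio of 1.82 was the largest of the enzyme genes (log2 fold change 0.85, SE 0.03, limma adjusted p = 1.2e-11). ANR1 had 252, 249 and 245 FPKM in OE PEG, against 156, 153 and 159 FPKM in WT PEG, a ratio of 1.59. ANS1 had 449.8, 459 and 455 FPKM in OE PEG, against 315, 306 and 322 FPKM in WT PEG, a ratio of 1.45. LAR1 had 81.0, 81.7 and 79.8 FPKM in OE PEG, against 57.2, 56.7 and 58.7 FPKM in WT PEG, a ratio of 1.40. These 3 genes separated the genotypes in every library, with limma adjusted p of 2.3e-11, 1.6e-09 and 8.5e-09. Such separation was common, with 37.5% of all genes tested higher in OE PEG and 34.1% lower. LAR3 had 19.5, 19.4 and 19.4 FPKM in OE PEG, against 15.1, 14.9 and 14.9 FPKM in WT PEG, a ratio of 1.30 (adjusted p = 5.6e-04). DFR1 had 151, 155 and 156 FPKM in OE PEG, against 134, 130.4 and 135 FPKM in WT PEG, a ratio of 1.16 (adjusted p = 2.2e-05). The log2 fold change of DFR1, 0.21, was 0.088 with equal FPKM sums and 0.085 with the length trend removed, and with quantile normalization it was 0.031 and not called. LAR1, at 0.48, was 0.295 with quantile normalization, and LAR3, at 0.35, was 0.233 with the length trend removed.

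ANS2 and LAR2 were not called between genotypes under PEG. ANS2 had 179, 182 and 178 FPKM in OE PEG, against 173, 172 and 175 FPKM in WT PEG, a log2 difference of 0.05 with a 95% interval of -0.01 to 0.11. LAR2 had 80.2, 86.6 and 80.7 FPKM in OE PEG, against 89.6, 85.7 and 82.7 FPKM in WT PEG, a log2 difference of -0.06 with a 95% interval of -0.15 to 0.03. The ANS2 libraries of the genotypes did not overlap although the gene was not called, and the LAR2 libraries did. With quantile normalization or rescaling to equal FPKM sums both genes were called lower in OE PEG, and LAR2 also with the length trend removed.

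In WT, PEG lowered most of the branch. The enzyme genes summed to 983 ± 14.2 FPKM in WT PEG and 1232 ± 9.25 FPKM in WT (SD, n = 3), a ratio of 0.798. By limma, 8 of the 10 genes were called, all lower in WT PEG, against 64.6% of the 22640 genes called in either direction, 34.7% called lower and 29.9% called higher. The median log2 fold change was -0.32 for the 10 genes and -0.04 for all genes. These values share the WT libraries with the comparison of OE and WT without PEG.

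MYB134 fell to 25.9, 25.7 and 24.9 FPKM in WT PEG, against 36.3, 36.6 and 36.5 FPKM in WT, the lowest ratio of the 10 at 0.699 (log2 fold change -0.50, SE 0.05, limma adjusted p = 2.3e-07). ANS1, at 0.714 times the WT mean (adjusted p = 5.7e-09), LAR2, at 0.745 (adjusted p = 3.5e-07), DFR1, at 0.751 (adjusted p = 1.8e-08), and LAR1, at 0.771 (adjusted p = 2.0e-07), followed. DFR2, at 0.869 (adjusted p = 1.0e-04), and ANR1, at 0.885 (adjusted p = 5.9e-05), fell less, and the ANR1 call was lost with quantile normalization. MYB115 fell at a ratio of 0.808 with overlapping libraries (adjusted p = 0.012), a call lost without WT library 1 or WT PEG library 2. ANS2, with 173, 172 and 175 FPKM in WT PEG and 181, 175 and 181 FPKM in WT, was not called (log2 fold change -0.04, 95% interval -0.11 to 0.02). LAR3 was not called either, with a log2 fold change of 0.08 and a 95% interval of -0.08 to 0.23.

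In OE, PEG lowered some genes of the branch and raised others. By limma, 7 of the 10 genes were called, against 64.6% of the 22640 genes. Lower in OE PEG were 5 of them, all enzyme genes, against 34.1% of all genes, and higher were 2, against 30.5%. The median log2 fold change was -0.12 for the 10 genes and -0.02 for all genes. Its median absolute size was 0.24 for the 10 genes and 0.27 for all genes. The enzyme genes summed to 1307 ± 12.7 FPKM in OE PEG and 1592 ± 24.9 FPKM in OE (SD, n = 3), a ratio of 0.821. This ratio too is of levels as deposited, with the higher FPKM sums over all genes in OE PEG.

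LAR2 fell the most in OE, to 80.2, 86.6 and 80.7 FPKM in OE PEG, against 125, 121 and 128 FPKM in OE (ratio 0.662, log2 fold change -0.59, SE 0.04, limma adjusted p = 7.3e-09). DFR1 fell to 151, 155 and 156 FPKM in OE PEG, against 217, 218 and 220 FPKM in OE (ratio 0.705, adjusted p = 1.5e-09). Both are the more abundant copy of their family in OE. The ANS family did not follow this, as its less abundant copy, ANS2, fell at a ratio of 0.794 (adjusted p = 1.1e-07). ANS1 fell at 0.825 (adjusted p = 2.3e-06) and ANR1 at 0.863 (adjusted p = 8.7e-06). On the log2 scale, ANS1 was -0.28, or -0.466 with quantile normalization, and ANR1 was -0.21, or -0.322 with equal FPKM sums. DFR2 and LAR1, less abundant in OE than DFR1 and LAR2, were not called. DFR2 had 88.2, 88.0 and 84.6 FPKM in OE PEG and 88.6, 89.6 and 86.2 FPKM in OE, a log2 difference of -0.02 with a 95% interval of -0.09 to 0.05. LAR1 had 81.0, 81.7 and 79.8 FPKM in OE PEG and 81.2, 78.0 and 76.4 FPKM in OE, a log2 difference of 0.04 with a 95% interval of -0.03 to 0.11. DFR2 was called lower under 2 other scalings, quantile normalization and equal FPKM sums.

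MYB134 rose with PEG in OE, where 5 of the 8 enzyme genes fell. It stood at 59.8, 56.6 and 57.2 FPKM in OE PEG, against 28.7, 32.7 and 31.4 FPKM in OE (ratio 1.87, log2 fold change 0.89, SE 0.05, limma adjusted p = 3.1e-10). For each FPKM of MYB134, the 8 enzyme genes summed to 22.6 ± 0.815 FPKM in OE PEG, 38.6 ± 1.19 FPKM in WT PEG, 51.7 ± 3.39 FPKM in OE and 33.8 ± 0.395 FPKM in WT (SD, n = 3). MYB115 had 14.8, 13.5 and 14.5 FPKM in OE PEG and 14.9, 14.2 and 14.4 FPKM in OE, and was not called (log2 difference -0.02, 95% interval -0.21 to 0.16). LAR3 rose to 19.5, 19.4 and 19.4 FPKM in OE PEG, against 17.2, 15.8 and 17.2 FPKM in OE (ratio 1.16, adjusted p = 0.022), a call lost with equal FPKM sums, quantile normalization or the length trend removed, and without OE library 2 or OE PEG library 1.

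The interaction tests whether the PEG response in OE differed from that in WT. By limma it was called for 6 of the 10 genes, against 56.9% of the 22640 genes, with 4 above 0 and 2 below, against 27.8% and 29.0%. The median was 0.16 for the 10 genes and 0.01 for all genes. Without regard to sign, it was 0.19 for the 10 genes and 0.31 for all genes. MYB134 had the largest value, 1.39 on the log2 scale (SE 0.06, limma adjusted p = 3.5e-10), and 95.4% of all genes had a smaller absolute one. Its PEG response was 0.89 in OE and -0.50 in WT, so the sign itself differed.

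LAR1 had an interaction of 0.41 (SE 0.05, limma adjusted p = 4.0e-06), with a PEG response of 0.04 in OE and -0.37 in WT. ANS2 had -0.29 (SE 0.04, adjusted p = 3.0e-05), with responses of -0.33 in OE and -0.04 in WT. The calls of MYB134, LAR1 and ANS2 were kept in every alternative run. ANS1, at 0.21 (adjusted p = 0.001), and DFR2, at 0.18 (adjusted p = 0.004), lost their calls with equal FPKM sums and without the length trend; with quantile normalization DFR2 lost it too and ANS1 was called at -0.14. LAR2, at -0.17 (adjusted p = 0.021), lost its call without the variance trend and without OE PEG library 1 or 3, WT library 3 or WT PEG library 1, but was -0.259 with the length trend removed, -0.297 with equal FPKM sums and -0.372 with quantile normalization. With quantile normalization ANS2 stood at -0.493. The interactions of DFR1 (-0.09), ANR1 (-0.04), LAR3 (0.13) and MYB115 (0.25) were not called, with adjusted p of 0.08, 0.44, 0.29 and 0.091. DFR1 was called at -0.209 with the length trend removed, -0.222 with equal FPKM sums, -0.268 with quantile normalization and -0.109 without WT library 1. ANR1 was called at -0.168 with equal FPKM sums and -0.242 with quantile normalization. MYB115 was called at 0.356 without WT library 2, at 0.325 without WT PEG library 3, and at 0.253 with the replicate number as a block.

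**Figure D3:**
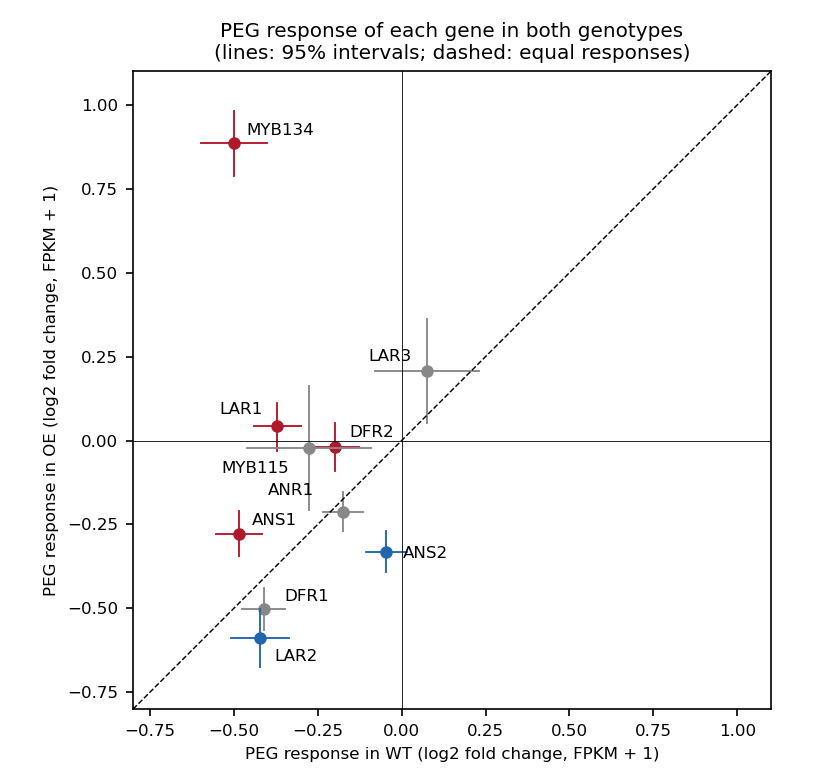
PEG response of each gene in OE (y axis) and in WT (x axis), both as log2 fold changes of FPKM + 1 with 95% intervals; the dashed line marks equal responses, and red and blue points have a called interaction above and below 0. MYB134 stands in the upper left, at 0.89 in OE and -0.50 in WT, far from LAR1 at 0.04 and -0.37. ANS2 and LAR2 are the called genes below the line.

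The make-up of the small families differed with genotype and medium, in shares of summed FPKM, which a single scaling factor per library leaves as they are. DFR2 made up 36.1% ± 0.855 of the DFR sum in OE PEG, 26.4% ± 0.556 in WT PEG, 28.8% ± 0.512 in OE and 23.6% ± 0.382 in WT (SD, n = 3), and no 2 of these groups overlapped. ANS2 made up 28.3% ± 0.210 of the ANS sum in OE PEG, 35.6% ± 0.464 in WT PEG, 29.1% ± 0.333 in OE and 28.9% ± 0.276 in WT, so that WT PEG stood apart. LAR1 made up 44.2% ± 0.681 of the LAR sum in OE PEG, against 36.3% ± 1.14 in WT PEG, 35.7% ± 1.09 in OE and 36.5% ± 1.06 in WT. The LAR2 share was 45.1% in OE PEG, 54.2% in WT PEG, 56.7% in OE and 56.5% in WT. For LAR3 it was 10.6% in OE PEG, 9.45% in WT PEG, 7.60% in OE and 6.97% in WT. With PEG, the LAR2 share was thus lower and the LAR3 share higher in both genotypes, without overlap. Reads that match both copies of a family could have been split or dropped in the authors' counting, which would move such shares.

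The level of the LAR genes relative to ANR1 differed by genotype on both media. The LAR sum was 0.735 ± 0.0189 of the ANR1 level in OE PEG, 1.02 ± 0.0306 in WT PEG, 0.763 ± 0.0119 in OE and 1.16 ± 0.0186 in WT (SD, n = 3). All 6 OE libraries lay between 0.717 and 0.771 and all 6 WT libraries between 0.981 and 1.18. The LAR sum itself was higher in OE, at 1.08 times WT without PEG and 1.15 times under PEG. ANR1 was higher by 1.63 and 1.59 times, so the ratio restates the larger difference of ANR1. How many other pairs of genes separate in this way was not computed. The ratio of MYB134 to MYB115 was 4.06 ± 0.127 in OE PEG, 2.89 ± 0.337 in WT PEG, 2.14 ± 0.193 in OE and 3.35 ± 0.505 in WT.

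**Figure D4:**
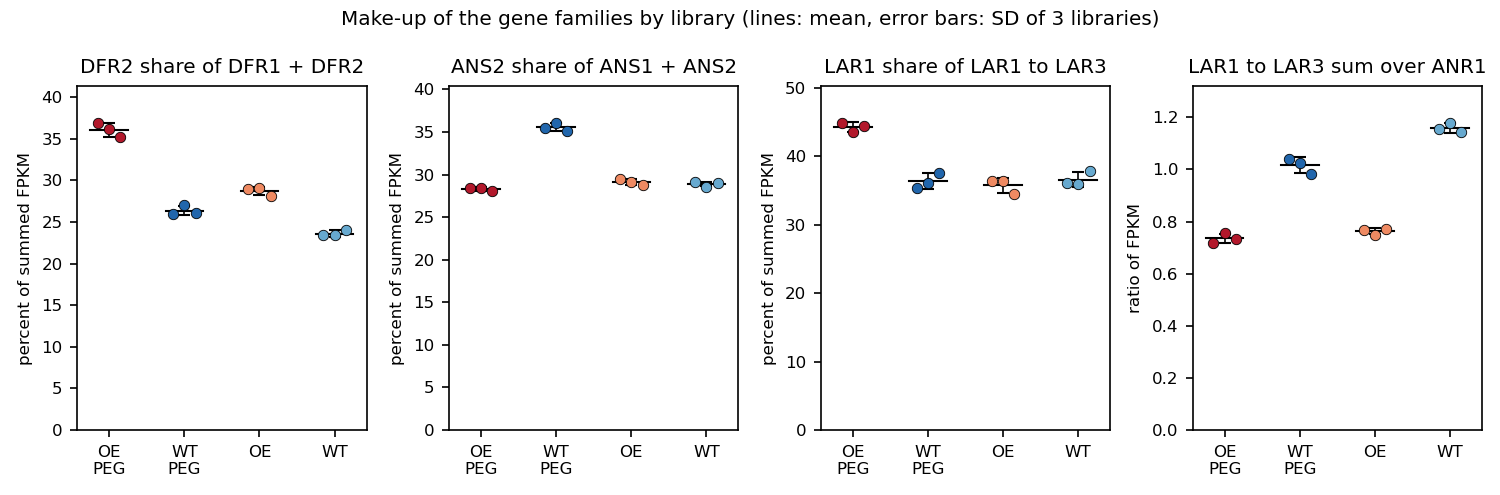
Share of DFR2, ANS2 and LAR1 in the summed FPKM of their families, in percent, and the ratio of the LAR sum to ANR1, for each library, with mean and SD of 3 libraries. DFR2 and LAR1 have their highest shares in OE PEG, at 36.1% and 44.2%, ANS2 has its highest in WT PEG, at 35.6%, and the ratio of the LAR sum to ANR1 is 0.717 to 0.771 in the OE libraries of both media.

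Likeness between genes was measured as the root-mean-square difference of centred log2(FPKM + 1) values over the 12 libraries, among the 15603 genes with a mean of at least 5 FPKM. A smaller value means a more similar pattern. The closest pair among the 10 was ANR1 and DFR2, at 0.08, with 2 other genes nearer to ANR1 and 6 nearer to DFR2. DFR1 and ANS1 were each the other's nearest of the 10, at 0.12, with 192 genes nearer to DFR1 and 123 nearer to ANS1, and LAR2 was as near to DFR1, at 0.12. The nearest of the 10 to MYB115 was ANR1, at 0.15, with 248 genes nearer, and the nearest to MYB134 was LAR1, at 0.32, with 1493 genes nearer to MYB134 than LAR1. These 1493 are 9.57% of the genes compared, so the absence of the 8 enzyme genes among them says little. The SD of MYB134 over the libraries, 0.43 on the log2 scale, exceeded that of 82.2% of the 15603 genes compared. The measure depends on the size of such variation as well as on its pattern.

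Outside the 10 genes, Potri.014G126100 and Potri.001G230500 were nearest to the mean pattern of the 8 enzyme genes, at 0.05 each. Potri.014G126100 stood at 176 ± 3.66 FPKM in OE PEG, 133 ± 4.31 FPKM in WT PEG, 210.4 ± 8.66 FPKM in OE and 170 ± 0.181 FPKM in WT (SD, n = 3). Nearest to MYB134 was Potri.007G080800, at 0.08, with 158 ± 11.9 FPKM in OE PEG, 68.1 ± 1.89 FPKM in WT PEG, 84.6 ± 7.31 FPKM in OE and 104 ± 7.20 FPKM in WT. Nearest to MYB115 was Potri.013G015300, at 0.07, with 107 ± 5.78 FPKM in OE PEG, 69.8 ± 2.41 FPKM in WT PEG, 106 ± 2.75 FPKM in OE and 85.3 ± 8.06 FPKM in WT. The table gives these 4 identifiers no name, and over the 4 group means in place of the libraries their ranks were 17, 3, 2 and 3.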

How the data were processed

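The authors deposited 1 table of FPKM values to 4 decimals, with a column for each of the 12 samples. Per the submitters' processing notes, HISAT2 2.1.0, HTSeq 0.6.0 and Bowtie2 2.2.3 were used. The sources used here give neither their roles nor the genome build, annotation and strand setting.

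Groups were taken from the sample titles. The main test was limma 3.58.1 in R 4.3.3 on log2(FPKM + 1), with a mean-variance trend, 2-sided, over all 12 libraries in 4 groups with 8 residual degrees of freedom. This scale understates fold changes at low levels. Genes with a mean of at least 1 FPKM were tested, and p-values were adjusted by Benjamini-Hochberg over all 22640 of them within a contrast. Ratios and shares were computed from FPKM.

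Whole reads and gene lengths were recovered from the steps of the FPKM values for 22638 of the 22640 genes, and the formula returned 100% of their values within 0.0001 FPKM or 0.001%. The implied library totals were 27124958 to 37106342 reads. Whether a read is a mate or a pair is not given. Among the low read numbers 61.6% were even, and the reason was not tested. Read numbers of replicates differed by a chi-square of 2.91 to 4.8 per degree of freedom, more than independent reads alone would give. These reads were used for a limma voom alternative. The fits and the recovery were tested on simulated data.

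The 10 genes and all tests were chosen with earlier results of these data known. All 10 are named, and other genes only by the rule of nearest pattern. Alternatives changed the pseudocount, filter, scaling, variance model, libraries and block, and were extended, after the data were seen, by removing a trend with gene length. No annotation of pathway genes or tissue markers was used here.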

Additional observations from a re-analysis of the deposited data

Results flagged for a closer look

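The response to PEG differed between the genotypes for 6 of the 10 genes by the test of the interaction in limma on log2(FPKM + 1), against 56.9% of all 22640 genes tested. The count is thus near the share of all genes. The median absolute difference was 0.19 for the 10 genes and 0.31 for all genes. MYB134 had the largest difference, 1.39 (OE minus WT), with opposite signs in the genotypes and no overlap between PEG and control libraries in either. Without overlap, 32.4% of all genes tested were higher with PEG in OE and 36.2% were lower with PEG in WT. For LAR1 the difference between the responses was 0.41, for ANS1 0.21, for DFR2 0.18, for LAR2 -0.17 and for ANS2 -0.29. Over the alternatives the difference ran from 1.26 to 1.43 for MYB134, from 0.28 to 0.44 for LAR1 and from -0.49 to -0.27 for ANS2, each called throughout. It ran from -0.14 to 0.24 for ANS1, from 0.03 to 0.20 for DFR2 and from -0.37 to -0.14 for LAR2, and each of these 3 lost its call in some alternatives.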

How the results depend on the processing

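Of the 50 values (10 genes in 5 contrasts), limma called 38, and 29 of these kept their direction and their call in each alternative run for them, 24 in all, of which the fit of only the 2 groups compared was not run for the interaction. Pseudocounts of 0.5 and 0.1, no filter, a minimum mean of 5 FPKM and voom on recovered reads changed none of the 50 verdicts. With the replicate number as a block, calls numbered 9, 8, 7, 8 and 7 against 9, 8, 7, 8 and 6, MYB115 joining the interaction. The labels do not say that a number links libraries, and deviations of same-numbered libraries correlated at -0.071 to 0.1.

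Scaling mattered most. Rescaling to the same FPKM sum shifted the median of all genes by -0.10 for OE PEG against WT PEG and by -0.11 for the interaction (log2), so its values are relative to that. Of all called genes, the share higher in OE without PEG was 47.3% with quantile normalization against 57.5%. With rescaling it was 40.5% against 52.9% under PEG, 35.3% against 47.3% for PEG in OE and 35.2% against 48.9% for the interaction. Genes of the 10 called lower in OE PEG than in WT PEG numbered 2 with rescaling, 2 with quantile normalization and 1 after removal of the length trend, against 0. Those called higher with PEG in OE numbered 1 in each of these 3, against 2, and in WT 1 with quantile normalization, against 0. Interactions above 0 numbered 2 in each of the 3, against 4. Interactions below 0 numbered 4 with rescaling, 5 with quantile normalization and 1 without the variance trend, against 2. The cause was not tested.

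Signs turned in these cases. ANS2 in OE PEG against WT PEG was -0.069 with rescaling, -0.153 with quantile normalization and -0.040 after removal of the length trend. ANS2 with PEG in WT was 0.067 with quantile normalization and 0.004 after removal of the length trend. LAR1 with PEG in OE was -0.068, -0.061 and -0.019 in the same 3 settings. Median-of-ratios scaling gave 0.010 for DFR2 and 0.004 for MYB115 with PEG in OE. The interaction of ANS1 was -0.136 with quantile normalization.

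With each library left out in turn, genes called numbered 7 to 9 without PEG (6 to 8 higher, 1 lower), 8 under PEG, 6 to 7 for PEG in OE (1 to 2 higher, 5 lower), 7 to 9 for PEG in WT (0 to 1 higher, 7 to 8 lower) and 5 to 7 for the interaction (4 to 5 above, 1 to 3 below). One higher call for PEG in OE was lost without OE library 2 or OE PEG library 1. LAR3 with PEG in WT was called higher at 0.176 without WT library 2 and was -0.006 without WT library 3. With PEG in OE, the values ran from -0.035 to 0.000 for DFR2, highest without OE PEG library 3, and from -0.050 to 0.015 for MYB115, highest without OE PEG library 2. Precision is limited by the 3 libraries a group. For MYB115 and LAR3, counting error at their fewest reads would be 5.62% and 4.3%, if reads were independent. Their SDs in WT were 14.0% and 13.9% of the mean, and the source of this spread was not tested.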
